A study of Drosophila melanogaster with 2 samples.

Results

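The genes described here were 35 Drosophila melanogaster genes of neural fate and neuronal function, listed by name, of 13945 protein-coding genes in the annotation. They form a progenitor and fate group of 18 genes, from ac to scrt, and a synaptic and channel group of 17 genes, from nSyb to Vmat. All 35 matched a protein-coding gene. Binding of the chromatin protein Pipsqueak (Psq) was measured by chromatin immunoprecipitation sequencing in 1 group of 2 biological replicates, numbered 3 and 4 by the labels. Both came from whole embryos of mixed sex, collected from 0 to 24 hours, of a transgenic line in which Psq carries a C-terminal GFP, and an anti-GFP antibody was used. The chromatin was sonicated to 200 to 800 bp, and a control experiment named in the labels was not analysed here. No other condition was present, so the members were described by counts beside the same counts over all genes, and no test was made. Whole embryos mix all tissues, and a summit cannot be assigned to neural cells.

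Psq is a BTB-domain protein whose DNA-binding repeats recognise GAGA sequences, which the GAGA factor encoded by Trl also binds. In the embryo, proneural genes of the achaete-scute complex make ectodermal cells competent to become neuroblasts, the neural stem cells. Neuroblasts then divide asymmetrically and pass through a series of temporal transcription factors. Their neuronal progeny later express the channels, transmitter enzymes and vesicle fusion proteins of synapses, so both ends of neural development are represented among these genes.

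The sequences below are examples from the members: the surroundings of the summits at Syx1A, Sh, pros and ChAT, and the stretch before the first base of sc, l(1)sc and Rdl, where no reproducible summit lay. A summit is the position of highest signal that the authors' caller gave within a peak. All are dm6 sequence from RefSeq, written 5′ to 3′ on the strand of the gene. Capitals mark GAGAG on either strand (GAGAG or CTCTC), including the longer GAGAGAG that contains it, and CAGGTAG or its complement CTACCTG, the site of the early embryonic activator Zelda. At Syx1A (minus strand) the summits lie in an annotated 5′ UTR, and only 30 bases are shown for each, chr3R:24105411-24105440 and chr3R:24105512-24105541. The Sh window (minus strand, chrX:17963397-17963597) and the pros window (plus strand, chr3R:11351918-11352118) are 201 bases centred on the summit. The ChAT window (plus strand, chr3R:18719999-18720102) starts just after an exon of the long noncoding RNA gene lncRNA:CR46265 and has 104 bases. The stretches before the gene starts are 250 bases each, chrX:395810-396059 for sc, chrX:409471-409720 for l(1)sc (both plus strand) and chr3L:9182150-9182399 for Rdl (minus strand).
Syx1A site near the stronger summit: gcaagcgaaaagGAGAGAGaaagaacaaat
Syx1A site near the weaker summit: acaaccagtgtgcGAGAGcgtgataggtgg
Sh summit: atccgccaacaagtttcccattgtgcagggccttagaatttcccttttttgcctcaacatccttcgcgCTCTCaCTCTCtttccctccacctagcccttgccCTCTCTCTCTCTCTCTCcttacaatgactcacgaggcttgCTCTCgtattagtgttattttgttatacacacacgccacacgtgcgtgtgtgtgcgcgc
pros summit: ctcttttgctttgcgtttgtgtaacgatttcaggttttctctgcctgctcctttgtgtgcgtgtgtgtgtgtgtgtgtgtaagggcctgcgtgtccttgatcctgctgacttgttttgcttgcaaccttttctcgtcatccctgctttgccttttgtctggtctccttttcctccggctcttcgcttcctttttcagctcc
ChAT summit: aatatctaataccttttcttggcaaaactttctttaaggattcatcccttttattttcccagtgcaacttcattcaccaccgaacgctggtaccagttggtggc
sc before the gene start: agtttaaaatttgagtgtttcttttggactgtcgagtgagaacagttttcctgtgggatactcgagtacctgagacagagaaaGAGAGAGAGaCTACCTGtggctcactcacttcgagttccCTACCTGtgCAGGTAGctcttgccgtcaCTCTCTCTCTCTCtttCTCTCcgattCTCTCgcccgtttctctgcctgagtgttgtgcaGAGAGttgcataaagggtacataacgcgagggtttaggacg
l(1)sc before the gene start: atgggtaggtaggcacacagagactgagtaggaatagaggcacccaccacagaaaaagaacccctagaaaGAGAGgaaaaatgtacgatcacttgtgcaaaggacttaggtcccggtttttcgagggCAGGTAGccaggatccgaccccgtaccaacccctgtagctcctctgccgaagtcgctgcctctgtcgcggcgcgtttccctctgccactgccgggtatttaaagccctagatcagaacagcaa
Rdl before the gene start: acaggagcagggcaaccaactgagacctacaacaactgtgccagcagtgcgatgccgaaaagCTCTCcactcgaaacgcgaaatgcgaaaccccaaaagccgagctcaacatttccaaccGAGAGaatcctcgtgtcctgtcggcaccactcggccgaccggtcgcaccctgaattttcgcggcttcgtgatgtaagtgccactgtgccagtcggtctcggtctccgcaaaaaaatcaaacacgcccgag

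The Sh window held an uninterrupted run of CT repeats near its centre and further single copies of CTCTC on both sides. The pros and ChAT windows held neither GAGAG nor CAGGTAG. Upstream of sc, GA and CT runs stood beside 3 copies of the CAGGTAG site. The 250 bases before ase, which had no summit in any list, held neither GAGAG nor CAGGTAG and are not shown. A match describes letters in a window and is neither a binding site nor a cause.

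Reproducible Psq-GFP peaks were scarce at the start sites of these genes. The authors' reproducible set, made by the irreproducible discovery rate (IDR) procedure, held 2999 peaks. An IDR summit at most 1000 bp from a transcription start site (TSS) was found at 1 of the 35 members, or 2.86% (exact Clopper-Pearson 95% interval 0.0723 to 14.9%). Over all protein-coding genes the share was 16.2%. The member was Syx1A, in the synaptic group of 17. In the progenitor group the count was 0 of 18, with an upper bound of 18.5%. The background share lies inside that interval and the synaptic one (0.149 to 28.7%), and above the interval of all 35 members. None of this is a test. These intervals cover counting error over genes only. They take the genes as independent, although some members are neighbours and VAChT shares its TSS with ChAT. They also do not cover the choice of members, which was made with earlier results of these data known.

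Inside gene bodies the count was higher. IDR summits lay in the bodies of 6 members, 17.1% (6.56 to 33.6%), beside 8.5% of all genes. There were 3 progenitor genes, grh, insc and pros, and 3 synaptic genes, Syx1A, Sh and ChAT. The groups thus had nearly equal shares, 16.7% (3.58 to 41.4%) and 17.6% (3.80 to 43.4%). By either position rule 6 of 35 members had an IDR summit, compared with 18.4% of all genes.

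**Figure D1:**
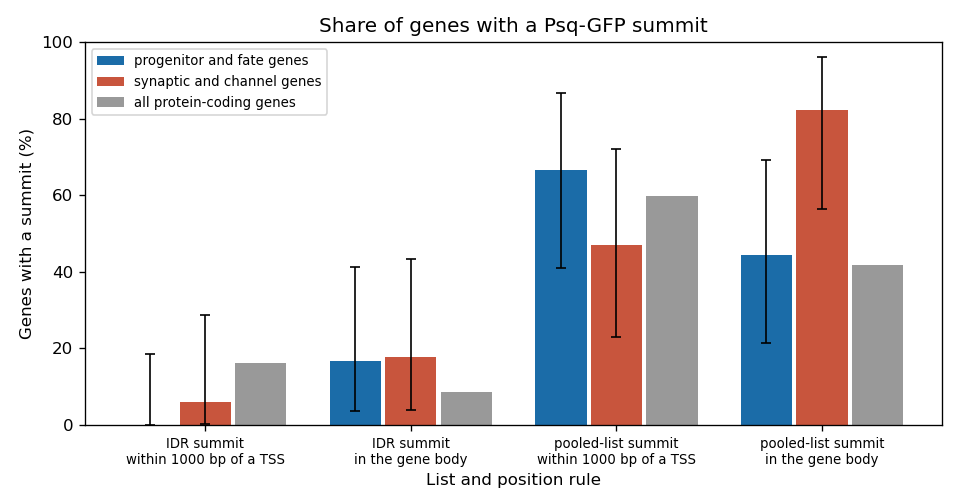
Share of genes in percent with a Psq-GFP summit, for the progenitor and fate genes (n = 18), the synaptic and channel genes (n = 17) and all 13945 protein-coding genes, by list and position rule. Error bars are exact 95% Clopper-Pearson intervals over genes; the synaptic group stands at 82.4% for pooled-list summits in the gene body beside 41.7% of all genes, and both groups lie below all genes for IDR summits near a TSS.

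Gene length differed strongly between the groups and sets the room for a body summit. The median length was 3341 bp in the progenitor group, 27653 bp in the synaptic group and 2166 bp over all genes. Among genes over 10000 bp, 5 of 21 members had an IDR summit in the body, 23.8% beside 32.3% of all genes that long. They were 3 of 6 progenitor and 2 of 15 synaptic genes. Among those at most 10000 bp it was 1 of 14, 7.14% beside 4.57%. Per 100 kb of gene body the IDR set gave 1.62 summits in progenitor genes, 0.499 in synaptic genes and 2.06 over all genes. Per 100 kb, both groups thus lay below all genes, although more of them had a body summit when each gene was counted once. At start sites the count over 10000 bp was 0 of 21 members, while 27.2% of all genes of that length had one.

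Syx1A had the highest-scoring peak of all members. It encodes syntaxin, a plasma membrane SNARE protein that drives fusion of synaptic vesicles, and spans 4164 bp on 3R. The deposited peak score is the caller's own statistic on a scale of its own in each list. The peak at chr3R:24105219-24105597 had a score of 224 in replicate 3, where it ranked 81 of 30000, and 337 in replicate 4, where it ranked 40. In the IDR set its score was 559 and its rank 57 of 2999. Its summit lay 380 bp downstream of the TSS in the 5′ UTR, close to the first of the short sites printed above, and within the body of eIF4EHP, a translation repressor gene that overlaps Syx1A. A second IDR summit, 178 bp downstream of the TSS, had a score of 157 and rank 755. Each replicate list had a separate summit within 31 bp of it, with a score of 65.9 in replicate 3 (rank 983) and 76.4 in replicate 4 (rank 944).

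Among the progenitor genes the summit with the highest score was in grh, which encodes the transcription factor Grainyhead, used late in the temporal series of neuroblasts and in epidermis. The grh peak at 17804781 to 17805053 on 2R had a score of 130 in replicate 3 (rank 250), 140 in replicate 4 (rank 277) and 268 in the IDR set (rank 262). Its summit was intronic, 2015 bp downstream of the nearest grh TSS, with no other gene over it. A neighbouring summit 2215 bp from that TSS had a score of 102 and rank 1660, and the replicate summits within 29 bp of it had 51.0 in replicate 3 (rank 1590) and 70.3 in replicate 4 (rank 1090). A further grh summit 448 bp upstream of a TSS, and 91 bp from that of asRNA:CR45270, was below the IDR set in the pooled list, with a score of 64.6 and rank 3636. It ranked 2928 in replicate 3 and 5067 in replicate 4, so the replicates put it on opposite sides of rank 2999.

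The insc and pros genes act in the asymmetric division of neuroblasts. Inscuteable, the insc product, links the cortical polarity complex to the spindle. The insc peak at 20831754 to 20832193 on 2R had a score of 52.3 in replicate 3 (rank 1517), 92.3 in replicate 4 (rank 659) and 143 in the IDR set (rank 899). Its summit was 4054 bp from the insc TSS in an intron, and also in an exon of the nested gene sktl, a phosphatidylinositol phosphate kinase gene, 444 bp from a TSS of sktl. By distance it belonged to sktl. A weaker pooled-list summit lay 247 bp upstream of the TSS position that insc shares with sktl, with a score of 59.6.

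Prospero, the pros product, is a homeodomain protein handed to the ganglion mother cell, where it ends self-renewal. The pros peak at chr3R:11351798-11352237 had a score of 69.0 in replicate 3 (rank 908), 71.1 in replicate 4 (rank 1061) and 131 in the IDR set (rank 1056). It was intronic, 17038 bp from the nearest pros TSS and 1113 bp from a TSS position of the nested genes KP78a and KP78b. This gene also held the member summit just outside the IDR set, in its 3′ UTR, with a pooled score of 71.1 and rank 3106, where the lowest IDR score was 72.5. The body of pros, 79148 bp long, held 19 pooled-list summits in all, 1 of them in the IDR set.

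The other synaptic members with an IDR summit were near the lower end of the set. ChAT encodes choline acetyltransferase, which makes acetylcholine. Its peak at chr3R:18719782-18720221 had a score of 44.3 in replicate 3 (rank 2062), 34.9 in replicate 4 (rank 3840) and 80.3 in the IDR set (rank 2532). The summit was intronic, 14501 bp from the TSS, and 379 bp from the TSS of a long noncoding RNA gene. Sh encodes the Shaker voltage-gated potassium channel. Its peak at chrX:17963277-17963716 had a score of 26.8 in replicate 3 (rank 4802), 57.1 in replicate 4 (rank 1621) and 78.9 in the IDR set (rank 2605). It was intronic, 3728 bp from the nearest of 8 Sh start sites. The −log10 q was at the maximum of its list for these peaks except for ChAT in replicate 4, at 2.93, and Sh in replicate 3, at 2.35. Both genes ranked within the first 2999 peaks of 1 replicate and beyond them in the other.

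**Figure D2:**
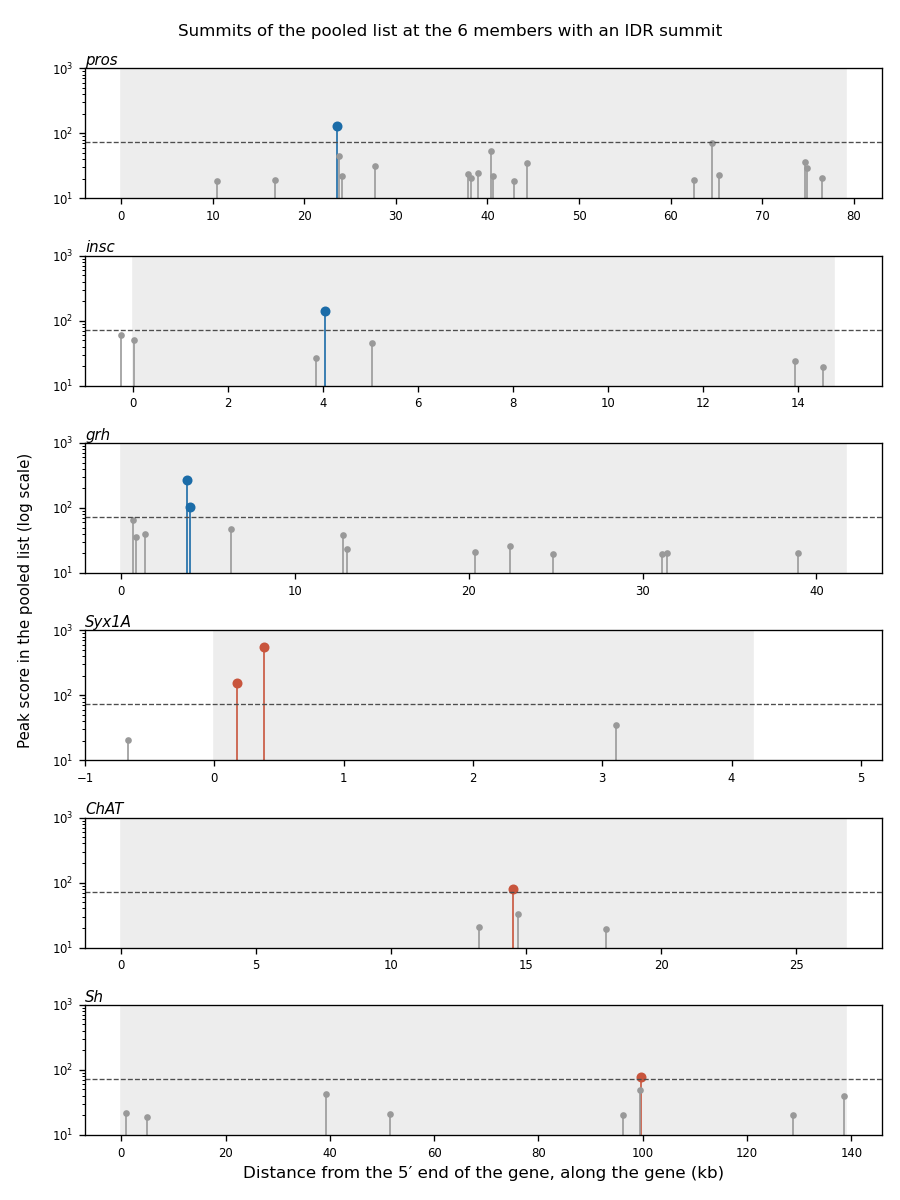
Pooled-list summits along the 6 members with an IDR summit, by distance in kb from the 5′ end of the gene and by peak score on a log axis. Grey shading is the gene body, the dashed line is the lowest IDR score of 72.5, and coloured points are IDR summits; apart from Syx1A, where they stand 178 and 380 bp from the start, the IDR summits lie over 2000 bp from the nearest TSS of the gene.

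All 8 member IDR peaks were overlapped by a peak of each replicate list, and all 8 also with an overlap of at least 50% of both peaks. The IDR set was derived from these same replicates and the lists are relaxed, so this overlap is not independent support for the peaks. The same shares over all IDR peaks are not given here. Among the 2999 highest-scoring peaks of each replicate alone, 6 of the 8 were overlapped in both. The others were the ChAT and Sh peaks. The order of genes was the same at the top in both replicates, with Syx1A first and grh second, whereas pros scored above insc and ChAT above Sh in replicate 3, and both orders were turned in replicate 4.

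**Figure D3:**
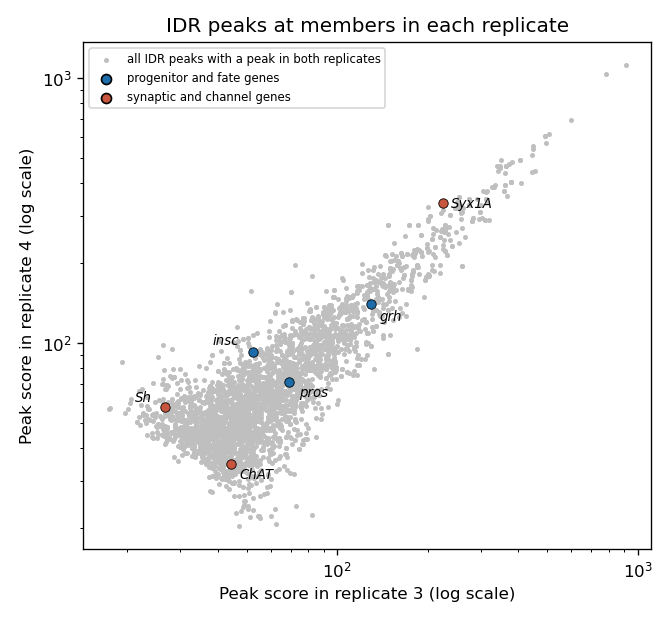
Peak score in replicate 3 and in replicate 4, both on log axes, for IDR peaks with a peak in both replicates (grey). Coloured points are the highest-scoring IDR peak of each member that has one, so the second peaks of Syx1A and grh are not coloured. Syx1A, at 224 and 337, lies among the highest-scoring peaks, while Sh, at 26.8 and 57.1, and ChAT, at 44.3 and 34.9, lie at the low end of the cloud.

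GAGAG occurred within 100 bp of 6 of the 8 member IDR summits, compared with 33.1% of all 2999 IDR summits. Those 6 were the pair at Syx1A, the pair at grh, and the summits of insc and Sh. They belong to 4 genes, and the peaks of each pair overlap. The 7-base GAGAGAG occurred at 2 summits, of Syx1A and Sh, beside 9.64% of all IDR summits. The CAGCTG E-box core that proneural proteins bind was at 0 of the 8, beside 10.4%, and CAGGTAG at 0, beside 0.834%. With 6 genes behind these counts they are a description of the sites.

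The relaxed lists gave another picture, with weak summits at most members. Each relaxed list holds 30000 peaks and background regions and reaches far below the IDR set, and only 7343 pooled peaks had a q of at most 0.05. In the pooled list 20 of 35 members had a summit in the 1000 bp around a TSS, 57.1% (39.4 to 73.7%) beside 59.8% of all genes. The progenitor group had 12 of 18 (66.7%, 41.0 to 86.7%) and the synaptic group 8 of 17 (47.1%, 23.0 to 72.2%). By either position rule 27 of 35 members had a pooled summit, 77.1% beside 64.3% of all genes. Both group intervals near a TSS include the share of all genes, which is no test of a difference. Among genes over 10000 bp, however, 57.1% of 21 members had a pooled summit near a TSS (6 of 6 progenitor and 6 of 15 synaptic genes) beside 78.2% of all genes that long. With pooled peaks of q at most 0.05, chosen after seeing the data, it was 5 of 35 members (14.3%) beside 31.0% of all genes.

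In gene bodies the pooled list had a summit at 22 members, 62.9% (44.9 to 78.5%) beside 41.7% of all genes. The synaptic group accounted for 14 of 17 (82.4%, 56.6 to 96.2%) and the progenitor group for 8 of 18 (44.4%, 21.5 to 69.2%). The synaptic interval lies above the share of all genes and the progenitor interval includes it, but the groups were not tested against each other or against all genes. Among genes over 10000 bp the pooled body shares were 85.7% of 21 members and 88.3% of all genes. Synaptic genes held 8.11 pooled summits per 100 kb of body, compared with 24.3 in progenitor genes and 23.0 over all genes. The larger share of synaptic genes with a body summit thus went with long bodies in which summits were sparse. The part of length in it was not tested.

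The replicates gave similar counts one by one. Within 1000 bp of a TSS, replicate 3 had a summit at 12 progenitor and 9 synaptic genes, where 58.8% of all genes had one, and replicate 4 at 14 and 7, where 59.6% had one. In the gene body replicate 3 had 9 and 16, beside 42.8% of all genes, and replicate 4 had 10 and 12, beside 44.2%. The synaptic body count moved most, from 16 genes to 12. A summit by either rule in the pooled list and both replicate lists was found at 23 of 35 members (65.7%), beside 53.6% of all genes. Members without a summit in any of these lists numbered 4 (11.4%), beside 24.6% of all genes. Outside the IDR set, 128 member summits were in the pooled list, of which 63 (49.2%) were overlapped in both replicates, beside 53.1% of all such peaks.

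**Figure D4:**
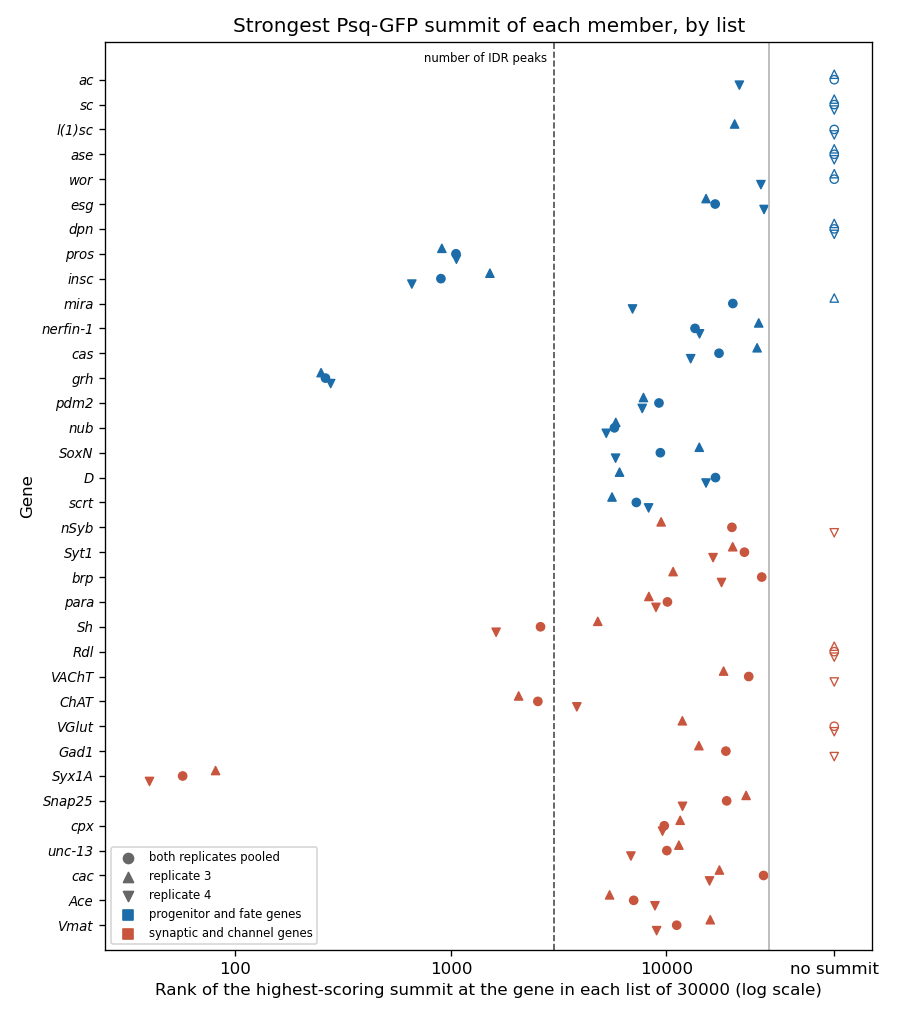
Rank, on a log axis, of the highest-scoring summit of each member in the pooled, replicate 3 and replicate 4 lists of 30000 peaks, with rank 1 the strongest and open symbols for genes without a summit by either rule. The dashed line is at 2999, the number of IDR peaks, and Syx1A, grh, insc and pros lie left of it in all 3 lists. No summit was in any list for sc, ase, dpn and Rdl, 11.4% of members beside 24.6% of all genes.

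Among progenitor genes without an IDR summit, nub, scrt and pdm2 had the highest scores in the pooled list. Scores of some other members differed between the replicate lists. D had 23.3 in replicate 3 and 16.6 in replicate 4, and SoxN 14.7 and 27.2. The mira gene had 24.7 in replicate 4 and no summit by either rule in replicate 3. The nub and pdm2 genes encode related POU-domain proteins of the temporal series, and scrt encodes a Snail-family repressor of non-neuronal fate. For nub the best summit had a score of 23.9 in replicate 3, 28.9 in replicate 4 and 47.6 in the pooled list, in an intron 1651 bp from a TSS. The scrt summit, 374 bp upstream of the TSS, had 24.5, 22.5 and 40.9 in the same lists. The pdm2 summit, 132 bp downstream of a TSS, had 20.2, 18.0 and 35.5. The scrt and pdm2 scores were below 41.9, the median of the best scores near a TSS over all genes with a pooled summit there.

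Of the remaining progenitor genes with pooled summits, SoxN and D encode SoxB proteins of the early neuroectoderm, cas is a late temporal factor, esg is a Snail-family gene, mira encodes the adaptor that carries Prospero, and nerfin-1 keeps neurons differentiated. Their best pooled scores ran from 22.9 at mira to 35.2 at SoxN. D was the member nearest to an IDR summit outside the TSS window in the progenitor group apart from grh, at 3126 bp. For esg the nearest IDR summit was 165162 bp away. The progenitor median was 25990.5 bp, the synaptic median 19276 bp and the median over all genes 12182 bp.

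**Figure D5:**
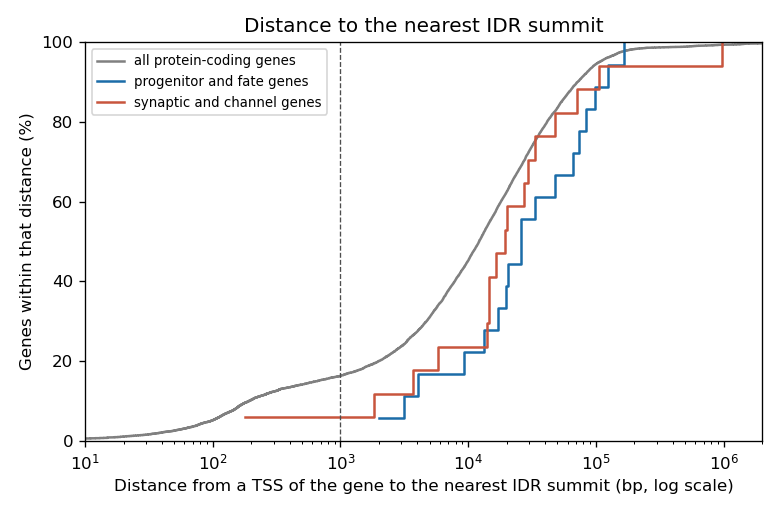
Cumulative share of genes in percent by distance in bp, on a log axis, from a TSS to the nearest IDR summit, for both member groups and all protein-coding genes, with a dashed line at 1000 bp. The medians are 25990.5 bp for progenitor, 19276 bp for synaptic and 12182 bp for all genes, and both member curves lie below the curve of all genes up to 10000 bp.

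The achaete-scute complex lay in a stretch with no IDR summit, on an arm with 2.15 IDR summits per 100 kb. Its genes ac, sc, l(1)sc and ase, which encode basic helix-loop-helix proneural and neural precursor proteins, span 93.1 kb of X (chrX:370031-463176). The pooled list had 10 summits there, 10.7 per 100 kb beside 21.2 over the arm, the highest with a score of 41.9. Replicate 3 had 10 and replicate 4 had 11. In none of these lists did sc or ase have a summit by either rule. A summit at l(1)sc was in the replicate 3 list alone (score 12.0, rank 20705 of 30000). One at ac was in the replicate 4 list alone (13.8, rank 21783 of 30000). Both scored below the medians of those lists, 14.3 and 16.7, and above their lowest scores, 9.58 and 11.4. The nearest IDR summit to all 4 genes was the same, 33254 bp from ase and 123970 bp from ac.

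The neuroblast genes wor and dpn were similar. The wor gene encodes a Snail-family protein and dpn a Hairy-related repressor that maintains self-renewal. A summit at wor was in the replicate 4 list alone (12.1), and dpn had none in the 3 relaxed lists. Its nearest pooled summit was 1212 bp from the TSS, just past the window.

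Among synaptic genes without an IDR summit, Ace, cpx and unc-13 had the highest scores in the pooled list. The para summits scored above those of cpx in both replicate lists, with 19.6 and 21.6. Ace encodes acetylcholinesterase, cpx complexin, which clamps vesicle fusion, and unc-13 a vesicle priming factor. The best Ace summit had a score of 24.8 in replicate 3, 21.8 in replicate 4 and 41.7 in the pooled list, 693 bp upstream of an Ace TSS but 146 bp from that of CG11686. The cpx summit had 16.3, 20.9 and 34.4, in a coding exon 2635 bp from a TSS. The unc-13 summit, on chromosome 4, had 16.4, 11.9 and 33.9, in an intron 13482 bp from a TSS, and in an exon of asRNA:CR44029, 709 bp from the TSS of that antisense gene. Another unc-13 summit, 342 bp upstream of a TSS, had 31.4 in the pooled list and 24.9 in replicate 4 (rank 6841). That was the highest replicate 4 score of a synaptic gene without an IDR summit, but no replicate 3 peak overlapped it. Pooled-list summits outside the IDR set had a median score of 22.2 at synaptic genes and 26.0 at progenitor genes, beside 25.7 over all such summits, and the difference was not tested.

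The vesicle fusion genes other than Syx1A had weak summits. The best pooled scores were 23.0 at nSyb, which encodes the vesicle SNARE, 23.8 at Snap25, its membrane partner, 21.3 at Syt1, the calcium sensor, and 19.1 at the active zone gene brp. No summit at nSyb was in the replicate 4 list. An IDR summit lay 1835 bp upstream of nSyb, and it was 124 bp from the TSS of Bgb. Among the channel genes, the sodium channel gene para had 33.7 and the calcium channel gene cac 18.8, both in the gene body, and the GABA receptor gene Rdl had no summit in any list.

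The transmitter genes were weak as well, apart from ChAT. VAChT, the vesicular acetylcholine transporter gene, is nested in ChAT and shares its TSS, and its best pooled score was 20.8. Its body ends before the ChAT summit. Gad1, which encodes the enzyme that makes GABA, had 23.9, and the monoamine transporter gene Vmat 31.9. VGlut, the glutamate transporter gene, had a summit in the replicate 3 list alone, with a score of 16.1.

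GAGAG was common before the start sites of members although IDR summits were not. Searched on both strands from 250 bp upstream to 50 bp downstream of any TSS, it was found at 28 of 35 members, 15 progenitor and 13 synaptic, beside 36.3% of all genes. Members have more start sites, with 1 TSS at 16 of 35 members and at 73.5% of all genes. At the gene start alone it was found at 23 members (65.7%), beside 29.7%. GAGAGAG was found by any TSS at 8 members, beside 9.08% of all genes, and CAGCTG at 10, beside 22.3%. Of the 28 members with GAGAG by a TSS, 0 had an IDR summit near one and 14 had a pooled summit (10 of 15 progenitor and 4 of 13 synaptic genes). Over all genes with GAGAG there, 20.3% had an IDR summit and 65.5% a pooled one. Of the 7 members without GAGAG there, 1 had an IDR summit and 6 a pooled one, beside 13.9% and 56.6% of all genes without it. With 1 member having an IDR summit near a TSS, these counts are a description only. The sc and Rdl stretches printed above belong to members with GAGAG by a TSS. CAGGTAG was found at 4 members, ac, sc, l(1)sc and dpn, beside 2.30% of all genes. Each of these lacked a pooled summit by either rule, as did 4976 of all 13945 genes. Both ac and l(1)sc had a summit in 1 replicate list, and ac, sc and l(1)sc are neighbours in 1 stretch where summits were sparse. The share without a summit among all genes with CAGGTAG was not computed, so no link between site and summit can be read from these 4.

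Other neural genes were taken from 2 further lists, written with earlier results of these data known. Of 34 further progenitor and fate genes, 8 had an IDR summit in the body (23.5%, beside 8.5% of all genes). Near a TSS by the same rule 6 had one (17.6%, beside 16.2% of all genes), namely elav, numb, brat, neur, Imp and lola. The highest of these not at elav, numb or brat was at Imp, an RNA-binding protein gene of young neuroblasts, with a score of 203 in the IDR set, 97.0 in replicate 3 and 106 in replicate 4, 576 bp from an Imp TSS and 568 bp from that of a long noncoding RNA gene. Of 66 further synaptic, transmitter and channel genes, 4 had an IDR summit in the body (6.06%, beside 8.5% of all genes) and 6 near a TSS (9.09%, beside 16.2%). These 6 were Syn, NaCP60E, sei, Syx4, Shaw and GluRIIB. The Syn summit, in front of the synapsin gene, had a score of 226 in replicate 3, 261 in replicate 4 and 487 in the IDR set, and lay 909 bp from a Syn TSS and 177 bp from that of CG12814. The syntaxin gene Syx4 had a summit 120 bp upstream of a TSS with a score of 109. In the pooled list 64.7% and 62.1% of these further genes had a summit near a TSS, close to the share of all genes.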

How the data were processed

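Psq-GFP ChIP-seq peaks of 2 biological replicates were used. The authors made a relaxed peak list for each replicate and for both pooled, against a control alignment, and an IDR-thresholded list from these, per the deposited text files. Software names, versions and the IDR cut-off were not given in the sources used here. Each deposited score is the caller's own statistic with its own scale in each list, so scores were compared within a list only. The deposited −log10 q is capped per list. The files hold no read numbers, so depth is unknown. The dm3 lists were not used. Coordinates are dm6, 1-based.

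Summits were placed on Ensembl release 115 gene models of arms 2L, 2R, 3L, 3R, 4 and X, without transposable elements, within 1000 bp of any TSS or inside the gene. A replicate's value is its highest-scoring peak that overlaps by at least 1 bp. The second IDR summits of Syx1A and grh are exceptions, and have the value of the nearest replicate summit. Motifs were searched in RefSeq dm6 sequence within 100 bp of a summit. Python 3.11.15, numpy 2.4.6, pandas 2.3.3 and matplotlib 3.10.9 were used, and the position rules were checked on simulated summits. The members and lists were chosen with earlier results of these data known. All members were named, those with an IDR summit in full, and the 3 highest-scoring others of each group with values. Alternatives were other TSS windows, 1 TSS per gene, the nearest TSS only, the body without its TSS part, the higher-scoring 50% of each list, each replicate alone, stricter overlaps and, added after seeing the data, q of at most 0.05.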

Additional observations from a re-analysis of the deposited data

How the results depend on the processing

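Of 50 alternative counts, 39 stayed within 1.5 times the reported count. An IDR set needs both replicates. For IDR counts, leaving out a replicate therefore meant the 2999 highest-scoring peaks of the other replicate, a rank cut in 1 sample. For the pooled list it meant the full relaxed list of the other replicate. Progenitor genes with an IDR summit near a TSS numbered 0, except in that rank cut without replicate 4, where grh made 1 (range 0 to 1 when leaving out a replicate). Synaptic genes by that rule numbered 2 with a window of 2000 bp, which added nSyb, where the share of all genes was 20.0%. They numbered 1 when either replicate was left out (16.0% of all genes without replicate 3 and 15.8% without replicate 4). Synaptic genes with an IDR body summit numbered 1 in the higher-scoring 50% of the list, where the share of all genes was 5.03%. They numbered 2 without replicate 3, where Sh remained and ChAT was lost. Without replicate 4 they also numbered 2, where ChAT remained and Sh was lost. The share of all genes was 8.40% in each. Progenitor genes with an IDR body summit were 3 in every alternative run. In the pooled list, progenitor genes with a body summit numbered 5 without the part near a TSS, where the share of all genes fell from 41.7% to 25.6%. Synaptic genes with a TSS summit numbered 5 with 1 TSS per gene and 4 in the higher-scoring 50%. The shares of all genes there were 58.0% and 45.1%, compared with 59.8% in the full list with any TSS. Synaptic genes with a body summit numbered 8 in the higher-scoring 50%, where the share of all genes was 26.5%. With q of at most 0.05, chosen after seeing the data, the counts near a TSS were 3 progenitor genes and 2 synaptic genes (14.3% of members beside 31.0% of all genes), and in the body 4 and 3 (20% beside 15.6%). The cause of these changes was not tested beyond the smaller number of peaks or positions used. Leaving out a replicate gave 12 to 14 and 7 to 9 genes near a TSS and 9 to 10 and 12 to 16 in the body. The shares of all genes were 58.8 to 59.6% near a TSS and 42.8 to 44.2% in the body. The replicate lists are single samples. No paired analysis was possible because there is 1 group.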
